A study of Caenorhabditis elegans with 2 samples.

Results

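The translation initiation and elongation factor genes of Caenorhabditis elegans were described by where the transcription factor SPTF-1 was recovered at their promoters. The set held the 38 protein-coding genes of 19973 on the nuclear chromosomes whose symbol began with eif- or eef-, or with ife- and a digit, together with iff-1 and iff-2. The symbols came from the Ensembl annotation of the WBcel235 genome, which is the build called ce11. The genes were grouped by symbol. Of them, 11 encode subunits of initiation factor eIF3, 5 are cap-binding ife genes and 8 are eIF5A and elongation factor genes. Another 12 form the eIF1, eIF2 and eIF2B group, which by symbol also takes in eif-2A and eif-2D. The remaining 2 are eif-4A3 and eif-6.

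Translation starts when initiation factors bring the small ribosomal subunit, the initiator tRNA and the capped mRNA together, and it goes on with elongation factors that deliver aminoacyl-tRNAs and move the ribosome along. eIF3 is the scaffold on the small subunit, eIF2 carries the initiator tRNA in its GTP-bound form, eIF2B recharges eIF2 with GTP, and eIF4E proteins hold the cap. The core factors are needed in every growing cell, and embryos rely on them for rapid protein synthesis. SPTF-1 is a zinc-finger protein of the Sp family, whose mammalian members bind GC-rich promoter elements.

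SPTF-1 was measured by chromatin immunoprecipitation and sequencing (ChIP-seq), which recovers DNA fragments that lie with a protein in chromatin. The single group was whole mixed-stage embryos of the transgenic strain OP707, collected 2.5 hours after synchronization by egg bleaching, with both sexes pooled, and it had 2 biological replicates. OP707 carries unc-119(tm4063) III and the transgene wgIs707, which expresses SPTF-1 with a C-terminal GFP-FLAG tag. The sequence that drives the transgene and the state of the strain's own sptf-1 gene are not given in the sources used here. The labels name an anti-GFP antibody in their description and sptf-1 in their antibody field. There was no second condition, so no value below carries a p-value, and no set of genes was tested against another.

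The authors deposited 30000 regions for each replicate, 30000 regions from both replicates together (the pooled list), and a thresholded list of 2430 regions from an analysis of irreproducible discovery rate. Each region has a summit, the position of its highest signal, and a signal value from the authors that has no stated unit. The values cannot be set against each other across lists, so regions were ranked within each list, with rank 1 the strongest. A gene was counted as having a peak when a thresholded summit lay between 1000 bp upstream and 500 bp downstream of one of its annotated 5' ends. Many C. elegans transcripts are trans-spliced, so an annotated 5' end can be a splice-leader site rather than the start of transcription. Read depth is not given in the sources used here. The pooled list is named as peaks and background, so a weak region in it can be background rather than binding.

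Of the 38 translation factor genes, 14 had a thresholded peak, which is 36.8% (exact 95% interval for a share, 21.8 to 54.0, which takes genes as independent). The share was 8.26% over all protein-coding genes. By group, a peak stood at 6 of 11 eIF3 genes and at 4 of 8 eIF5A and elongation factor genes. It stood at 3 of 12 genes of the eIF1, eIF2 and eIF2B group, 1 of 5 cap-binding genes and neither of eif-4A3 and eif-6. With so few genes per group the intervals are wide, from 23.4 to 83.3% for eIF3 and from 15.7 to 84.3% for the elongation group. Intervals here and below reflect the number of genes alone and not the spread between replicates. The genes of each group are all those the symbol rule gives, not a sample. The differences between groups were not tested.

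Most of the genes without a thresholded peak still had a listed region of lower signal, which can be background. A further 17 genes had no thresholded summit but a summit in each replicate list, 3 had one in a single replicate list, and 4 had none in either. Thus 31 of 38 genes (81.6%) had a summit somewhere in the window in both replicate lists, where 32.4% of all genes did. These need not be the same site. A pair of summits within 100 bp of each other, a distance chosen after values were seen, was present at 28 of 38 genes (73.7%) and at 25.4% of all genes. The ranks given below are of the strongest summit of each list, and these lay over 100 bp apart in the replicates for 7 genes, namely eif-3.H, eif-3.I, eif-2Bbeta, eif-4A3, ife-5, eef-1B.1 and iff-1. In the pooled list 32 of 38 genes (84.2%) had a summit of any strength, against 39.8% of all genes. In the lists of replicate 1 and replicate 2 the counts were 33 and 32 genes, with 40.1% and 41.5% of all genes.

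**Figure D1:**
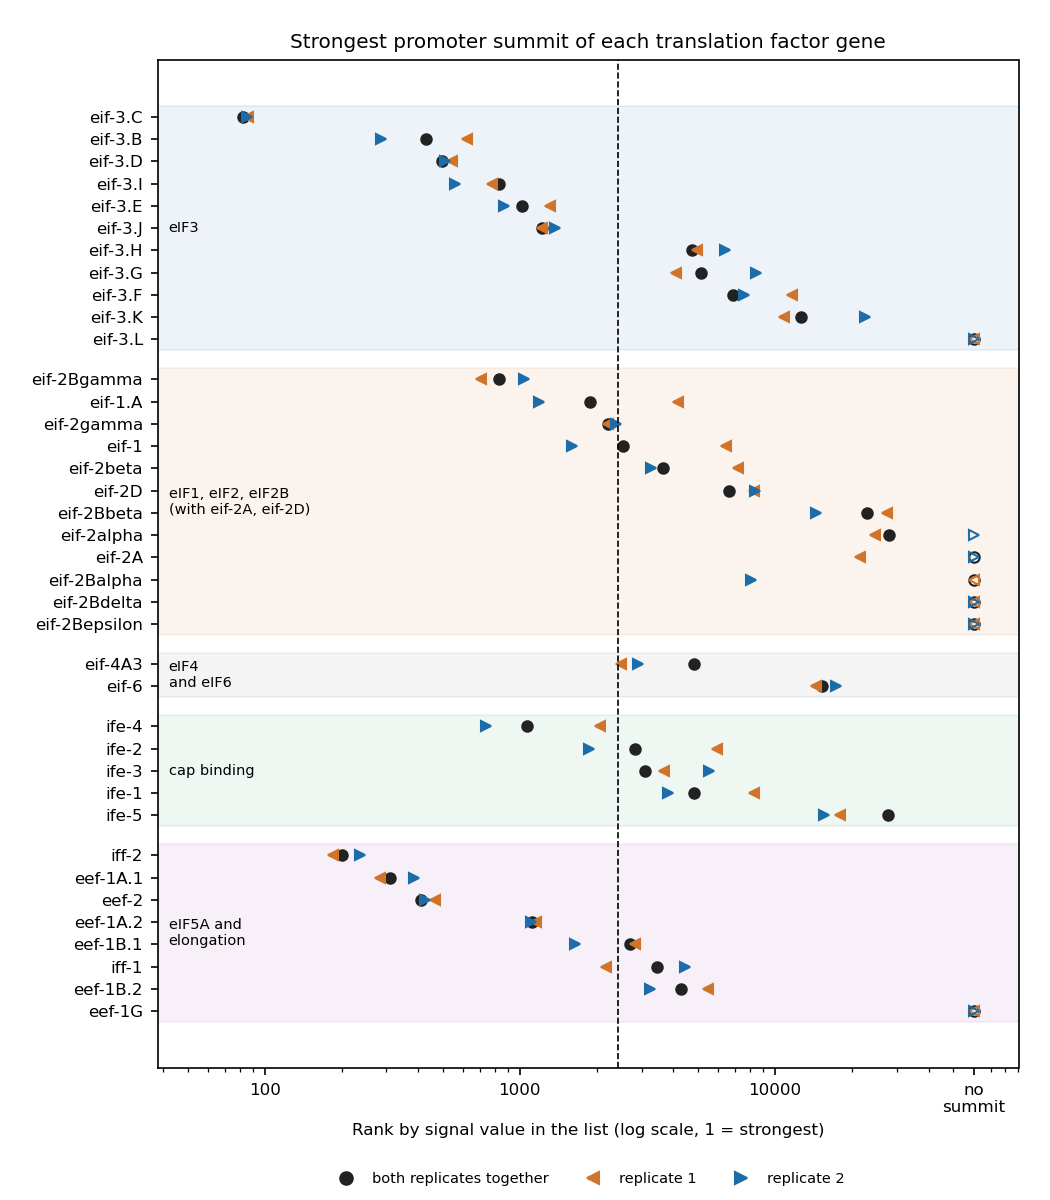
Rank of the strongest promoter summit of each of the 38 genes on a log axis, with rank 1 the strongest, in the pooled list (circles) and in the lists of replicate 1 and replicate 2 (triangles), with open symbols for no summit. The dashed line is rank 2430, the length of the thresholded list, and 14 genes have their circle to the left of it, led by eif-3.C at rank 82.

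The eIF3 scaffold is described first. eif-3.B (WBGene00001225), which encodes a core subunit that organizes the complex on the ribosome, had its peak at chrII:14794958-14795381 between genes, with the summit 234 bp upstream of the 5' end and in the window of no other gene. Its signal was 515 in the thresholded list, rank 427, and it was 239 in replicate 1 and 281 in replicate 2, with ranks 622 and 286. The replicate summits lay 0 and 3 bp from the thresholded one. eif-3.D (WBGene00001227), a subunit at the edge of the complex near the mRNA exit side, had its peak at chrIII:8971624-8972047, 258 bp upstream. Its signal was 481, rank 495, with 257 and 218 in replicates 1 and 2 and ranks of 540 and 508. That summit was nearer to the divergent neighbour R08D7.4, at 56 bp upstream of it, so which gene it belongs to cannot be told apart. The 101 bp centred on each summit are given because the signal was highest there, read on the strand of the gene from WBcel235 (RefSeq). The eif-3.B sequence is chrII:14795120-14795220 on the + strand and the eif-3.D sequence is chrIII:8971786-8971886 on the - strand. Capitals here and below mark the GC box GGGCGG on either strand and the tetramer GCGC, which was chosen after values were seen. GCGC was in 57.2% of all thresholded windows of 201 bp.
eif-3.B: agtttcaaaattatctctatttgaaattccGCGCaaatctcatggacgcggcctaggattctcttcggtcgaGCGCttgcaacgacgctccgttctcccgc
eif-3.D: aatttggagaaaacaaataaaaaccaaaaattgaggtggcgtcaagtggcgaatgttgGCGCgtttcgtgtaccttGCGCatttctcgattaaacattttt
Both sequences hold GCGC at 2 places and neither holds the GC box.

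The other 4 eIF3 genes with a peak lie on chromosome I. eif-3.C (WBGene00001226), whose protein is a core subunit that reaches toward the start codon factors, had the strongest peak of the set, at chrI:9979771-9980039, 240 bp upstream and between genes. Its signal was 1151 in the thresholded list, 642 in replicate 1 and 495 in replicate 2, and its ranks of 82, 86 and 85 were nearly the same in the 3 lists. eif-3.E (WBGene00001228), a subunit of the PCI-domain part of the complex, had its summit 226 bp upstream, with a signal of 328 (rank 1021). Its replicate signals were 166.4 in both, with ranks of 1318 and 863. It lay in the intergenic stretch chrI:10642295-10642718, and the gene B0511.17 shared the summit from 522 bp.

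eif-3.I (WBGene00001232), the WD-repeat subunit that binds eif-3.B, was the gene with 2 thresholded summits. One lay 212 bp upstream of its first 5' end at chrI:2485437-2485860, with a signal of 366, rank 832, and was shared with the divergent gene abtm-1 at 258 bp. The other lay within an intron of eif-3.I at chrI:2487700-2488123, 2051 bp past the first 5' end and 492 bp upstream of an internal annotated 5' end, with a signal of 361 and rank 859. The replicates ordered them differently. In replicate 1 the intronic summit had a signal of 213 (rank 775) and the upstream one 158 (rank 1475). In replicate 2 the intronic summit had 152 (rank 1012) and the upstream one 207 (rank 558). eif-3.J (WBGene00012738), a loosely attached subunit at the decoding site, had its summit 921 bp upstream at chrI:13434356-13434779, within the 3' UTR of the neighbouring gene slc-25A46, with a signal of 299.6 and rank 1217. Its replicate signals were 173 and 131, with ranks of 1216 and 1372. It was the farthest summit among the genes with a peak.

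The strongest summits of the eIF3 genes B, C, D, E and I fell between 212 and 258 bp upstream of their 5' ends, and that of eif-3.J at 921 bp. The median for the strongest summits of all 14 genes was 249 bp upstream, with a range of 12 to 921 bp. The same median over the 1650 genes with a peak was 248 bp. All 14 lay upstream, as did 1504 of the 1650.

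**Figure D2:**
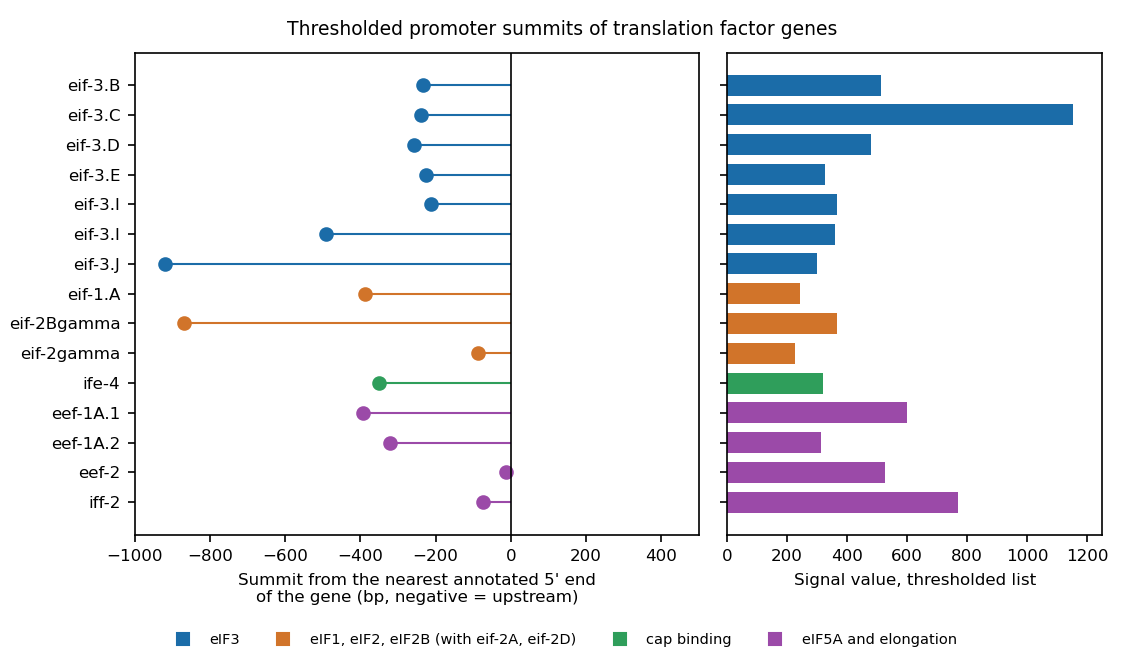
The 15 thresholded summits of the 14 genes, with the distance from the nearest annotated 5' end of the gene in bp on the left and the authors' signal value in the thresholded list on the right. The strongest summits of eif-3.B, eif-3.C, eif-3.D, eif-3.E and eif-3.I gather between 212 and 258 bp upstream, and the bar of eif-3.C is the longest at 1151.

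Among the eIF3 genes without a thresholded peak, eif-3.H, eif-3.G, eif-3.F and eif-3.K each had a summit in both replicate lists and none in the thresholded list. In the pooled list eif-3.H had a signal of 168 (rank 4711), eif-3.G 162 (rank 5147), eif-3.F 146 (rank 6848) and eif-3.K 113 (rank 12669). eif-3.G encodes an RNA-binding subunit that takes part in scanning, and eif-3.F and eif-3.H encode the paired MPN-domain subunits. The replicate ranks were 4952 and 6345 for eif-3.H, 4108 and 8391 for eif-3.G, 11615 and 7553 for eif-3.F, and 10842 and 22546 for eif-3.K. For eif-3.H they belong to different sites, since the strongest summit lay at -916 bp in replicate 1 and at -26 bp in replicate 2, and the closest pair of summits was 9 bp apart. eif-3.L had no summit in any of the 4 lists. Of the 31-base stretches in its promoter window, 16.2% occur once in the genome, and it was the only one of the 38 genes under 50%. The part of this in the missing summit was not tested. The eIF3 subunit genes egl-45 and cif-1 lie outside the symbol rule and were looked up after the other values were seen. The gene for the largest subunit, egl-45, had a summit in replicate 2 alone, at rank 20118, and cif-1, which encodes subunit M, had a pooled summit with a signal of 168 at rank 4718. With them, 6 of 13 eIF3 subunit genes had a thresholded peak.

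Among the elongation factors, eef-1A.1 (WBGene00001168), formerly eft-3, and eef-1A.2 (WBGene00001169) encode elongation factor eEF1A, which delivers aminoacyl-tRNAs to the ribosome. Their proteins have 463 amino acids each and are 100% identical, and their coding sequences are 94.0% identical, and a thresholded summit lay in the window of each gene. The peak of eef-1A.1 at chrIII:6972054-6972186 had a signal of 599 (rank 310), with 352 and 246 in replicates 1 and 2 and ranks of 283 and 386. Its summit lay 393 bp upstream, was nearer to rfc-4 (148 bp) and lay 20 bp from the annotated miRNA gene cel-mir-5549. The peak of eef-1A.2 at chrX:7823121-7823544 was lower in rank, with a signal of 315 (rank 1111), 177 and 146 in replicates 1 and 2 and ranks of 1152 and 1102. It lay 321 bp upstream of eef-1A.2 and in no other gene's window. In both summit windows all 31-base stretches occur once in the genome, so the windows share no exact stretch of that length. They were not aligned to each other, so lesser similarity cannot be told from this.

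iff-2 (WBGene00002065) encodes eIF5A, the factor with a hypusine residue that keeps the ribosome moving through difficult peptide bonds. Its peak at chrII:8561316-8561551 was the second strongest of the set, with a signal of 771 (rank 201), 452 and 314 in replicates 1 and 2 and ranks of 186 and 236. The summit lay 73 bp upstream, and F54C9.14 shared it from 862 bp. The paralog iff-1, known for its role in the germline, has a protein 69.2% identical to that of iff-2, and its promoter summit fell below the threshold in the pooled list with a signal of 189.6 at rank 3452. In replicate 1 alone iff-1 ranked 2179, within the strongest 2430, and in replicate 2 it ranked 4447. The sequences below set the summit stretches in the windows of the 2 eEF1A genes and of iff-2 beside each other, since the proteins of the first pair are identical. The eef-1A.1 stretch is nearer to rfc-4, so it cannot be given to eef-1A.1 alone. They are chrIII:6972055-6972155 on the - strand, chrX:7823283-7823383 on the + strand and chrII:8561390-8561490 on the - strand of WBcel235.
eef-1A.1: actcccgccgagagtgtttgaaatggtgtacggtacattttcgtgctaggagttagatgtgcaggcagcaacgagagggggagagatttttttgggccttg
eef-1A.2: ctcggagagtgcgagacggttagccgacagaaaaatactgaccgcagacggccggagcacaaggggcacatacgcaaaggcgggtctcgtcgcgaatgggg
iff-2: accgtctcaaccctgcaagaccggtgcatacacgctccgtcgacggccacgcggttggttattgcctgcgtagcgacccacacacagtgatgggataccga
None of these stretches has a capital, so neither GCGC nor GGGCGG occurs within 50 bp of the 3 summits. In the wider window of 201 bp, eef-1A.2 holds GCGC and the other ones do not.

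The remaining elongation genes were eef-2, eef-1B.1, eef-1B.2 and eef-1G. eef-2 (WBGene00001167), which encodes the GTPase that moves the ribosome by one codon, had the summit nearest to a 5' end, 12 bp upstream at chrI:9163445-9163554. Its signal was 526 (rank 409), with 276 and 239 in replicates 1 and 2 and ranks of 466 and 423. clsp-1 shared that summit from 253 bp. eef-1B.1 and eef-1B.2 encode subunits of the exchange factor that recharges eEF1A, and each had a weaker summit in both replicates. eef-1B.1 stood just below the threshold, with a pooled signal of 209 (rank 2695) and ranks of 2815 and 1646 in replicates 1 and 2. eef-1B.2 had a pooled signal of 174 (rank 4284) and ranks of 5444 and 3248. eef-1G, which encodes the structural subunit of the same exchange factor, had no summit in any list.

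In the C. elegans eIF4E family only ife-4 (WBGene00002062), the member related to mammalian 4EHP, had a thresholded peak. It was at chrX:1103649-1104072, 351 bp upstream and in no other gene's window, with a signal of 320.5 and rank 1070. Its replicate signals were 137 and 179, with ranks of 2069 and 738. The other 4 genes had a summit in each replicate list and none in the thresholded list. Their pooled signals were 205 for ife-2 (rank 2820), 197 for ife-3 (rank 3102), 167 for ife-1 (rank 4831) and 72.5 for ife-5 (rank 27819). In replicates 1 and 2 ife-3 ranked 3683 and 5518, ife-1 ranked 8298 and 3813, and ife-5 ranked 18028 and 15490. ife-2 ranked 1872 in replicate 2 and 5918 in replicate 1, so by the strongest 2430 regions of replicate 2 alone 2 of the 5 genes would be counted, and by those of replicate 1 alone it would be 1.

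The eIF1A gene eif-1.A (WBGene00019162), whose protein helps the small subunit scan for the start codon, had its peak at chrIV:4810334-4810757, 388 bp upstream and between genes, and H06H21.37 shared the summit from 572 bp. Its signal was 244 (rank 1875). In replicate 1 it ranked 4168 with a signal of 105, and in replicate 2 it ranked 1191 with a signal of 141. It was the only one of the 14 genes outside the strongest 2430 regions of a replicate. eif-2Bgamma (WBGene00004090), for a subunit of the catalytic part of eIF2B, had its summit 869 bp upstream at chrII:6968305-6968728, with a signal of 367 (rank 828). Its replicate signals were 225 and 150.3, with ranks of 703 and 1036. That summit lay in an exon of sup-39, annotated as an snRNA gene, and of the non-coding RNA gene C15F1.14, and within an intron of C15F1.5. The small RNA gene mir-1831 also lay within 200 bp of it. Of the 31-base stretches around the summit 59.6% occur once in the genome, the lowest of the 15 summit windows. The other 14 windows were wholly unique. The sequences of the eif-1.A, eif-2Bgamma and ife-4 summits follow. Those of eif-1.A and eif-2Bgamma hold the GC box known for Sp-family proteins, and that of ife-4 does not. The eif-2Bgamma stretch is centred in the sup-39 exon, so its GC box cannot be read as a promoter element of eif-2Bgamma. They are chrIV:4810496-4810596 on the + strand, chrII:6968467-6968567 on the - strand and chrX:1103811-1103911 on the + strand of WBcel235.
eif-1.A: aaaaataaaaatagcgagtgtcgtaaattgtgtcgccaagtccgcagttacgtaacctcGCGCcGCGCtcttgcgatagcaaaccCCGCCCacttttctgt
eif-2Bgamma: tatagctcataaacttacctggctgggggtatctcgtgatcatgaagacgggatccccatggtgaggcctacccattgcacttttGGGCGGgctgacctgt
ife-4: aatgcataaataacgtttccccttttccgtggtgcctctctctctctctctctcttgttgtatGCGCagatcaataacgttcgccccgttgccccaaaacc
The GC box is written as CCGCCC in eif-1.A, since it lies there on the other strand.

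The third gene of this group with a peak was eif-2gamma (WBGene00021466), for the GTP-binding subunit of eIF2. Its summit lay 86 bp upstream at chrI:2312973-2313396, with the lowest signal of the 14 genes, 227 (rank 2214). Its replicate signals were 133 and 103.03, with ranks of 2209 and 2383. All 3 ranks were near the end of the thresholded list at 2430, where the signal was 219. The gene just outside the threshold was eif-1, which encodes the start codon fidelity factor eIF1, with a signal of 215 and rank 2541 in the pooled list and ranks of 6434 and 1606 in replicates 1 and 2. The other subunits of eIF2 were lower. eif-2beta had a pooled signal of 185 (rank 3653) and replicate ranks of 7151 and 3260. eif-2alpha, the subunit that stress kinases phosphorylate, had pooled and replicate 1 ranks of 28037 and 24742 and no summit in replicate 2. Of the 5 eIF2B genes, eif-2Bgamma alone had a thresholded peak. eif-2Bbeta had a pooled signal of 82.5 (rank 22831) and replicate ranks of 27409 and 14526, for summits at -390 bp and 106 bp from a 5' end. eif-2Balpha had a summit in replicate 2 alone at rank 8015, and eif-2Bdelta and eif-2Bepsilon had none in any list. eif-2D, for an alternative initiator tRNA factor, had a pooled signal of 148 (rank 6593) and replicate ranks of 8243 and 8371, and eif-2A had a summit in replicate 1 alone at rank 21529.

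eif-4A3, the helicase of the exon junction complex, and eif-6, which keeps free large ribosomal subunits apart from small ones, had no thresholded peak. eif-4A3 had a pooled signal of 167 (rank 4834) and ranks of 2480 and 2910 in replicates 1 and 2. Those ranks belong to different sites, at -38 bp from one annotated 5' end in replicate 1 and at -531 bp from another in replicate 2. The 2 summits lay 2300 bp apart, and the closest pair of summits was 26 bp apart. eif-6 had a pooled signal of 102.7 (rank 15334) and ranks of 14509 and 17310. No gene in the annotation had the symbol eif-5.

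In the pooled list 14 genes were at ranks up to 2430, 13 between 2431 and 10000, 5 lower and 6 without a summit, which is 36.8%, 34.2%, 13.2% and 15.8%. Over all genes the same shares were 8.26%, 13.0%, 18.5% and 60.2%. The median pooled rank of the genes with a summit was 2757.5 for the translation factors and 8893 for all genes. Within the thresholded list itself the strongest summits of the 14 genes had a median signal of 367 and a median rank of 830, against 327 and 1027.5 for all genes with a peak. These differences were not tested.

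**Figure D3:**
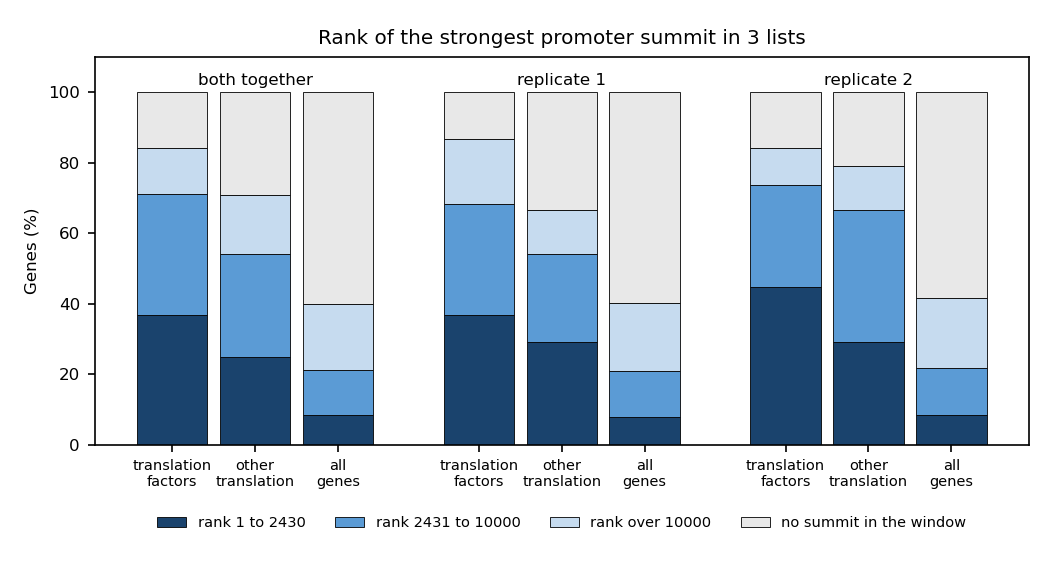
Share of genes in percent by the rank of their strongest promoter summit in the pooled list and in each replicate list, for the translation factor genes, the other translation genes described below and all protein-coding genes. In the pooled list the translation factors have 36.8% of genes at ranks up to 2430 and 15.8% without a summit, against 8.26% and 60.2% of all genes.

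Over the 31 genes with a summit in both replicates Spearman's rho of the ranks was 0.892, and over the 6467 such genes of the genome it was 0.722. Both lists share their control file, and the ranks can be of different sites, so these are descriptions of the lists. The translation factors also had better ranks (median pooled rank 2757.5 against 8893 for all genes), so rho is not compared at equal rank. The ranks were within 2-fold of each other for 21 of 31 genes, against 4345 of 6467, which is a similar share. The median ratio between the ranks was 1.498 against 1.60. The strongest 2430 regions of replicate 1 marked 14 of the genes and those of replicate 2 marked 17, where 7.97% and 8.49% of all genes were marked. In both replicates at once it was 13 of 38 genes (34.2%), against 6.28% of all genes. Of the 14 genes with a thresholded peak 13 were in both (92.9%), against 73.6% of all genes with one. The thresholded list holds the strongest pooled regions from these same replicates. The 14 genes also had the better median rank in it, 830 against 1027.5, so these shares are not compared at equal rank.

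**Figure D4:**
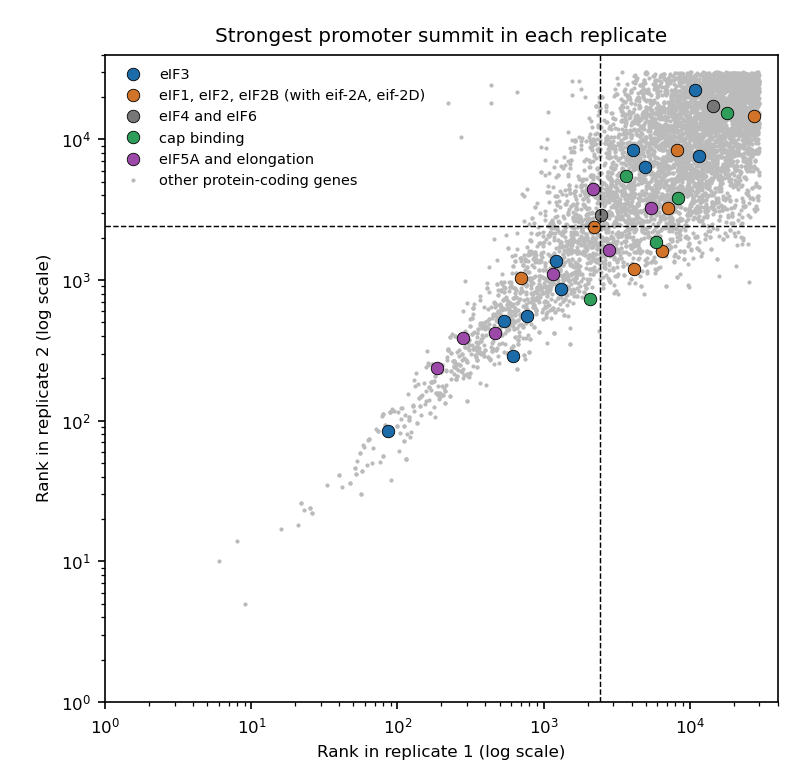
Rank of the strongest promoter summit in replicate 2 against that in replicate 1, both on log axes, for the 31 translation factor genes (coloured by group) and all other protein-coding genes (grey) with a summit in both replicate lists. Dashed lines are at rank 2430, and of the coloured points 13 lie below both, with eif-3.C lowest at ranks 86 and 85.

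A summit in the windows of several genes cannot be given to one of them. Of the 14 genes, 7 (50%) had their strongest summit in no other protein-coding gene's window, against 52.1% of all genes with a peak. Their own 5' end was the nearest one for 12 of 14 (85.7%), against 75.1%. The gap to the nearest upstream protein-coding gene on the same strand was at most 500 bp for 7 of the 38 genes. In these the window reaches into that gene, and whether they share its promoter was not tested. A peak stood at 3 of them, eif-3.C, eif-2Bgamma and eif-2gamma, and at 11 of the 31 with a wider gap. The other ones were ife-5 (65 bp), eif-3.F (116 bp), eif-2alpha (133 bp) and eef-1B.2 (295 bp). The same count over all genes was not made. With 1000 bp, the window also reached into the upstream gene at some of the wider gaps. These were eif-3.G (616 bp), ife-3 (747 bp), eif-3.K (794 bp), ife-1 (809 bp), eif-3.J (878 bp) and ife-4 (892 bp). Of these, eif-3.J and ife-4 had a peak. When each summit was counted for the nearest 5' end alone, 12 of the 38 genes had a peak and 6.24% of all genes did, with eif-3.D and eef-1A.1 lost to their neighbours. A window of 500 bp upstream gave 12 genes against 6.44% of all, without eif-3.J and eif-2Bgamma, and one of 2000 bp gave 15 genes against 10.9%, with eif-2alpha added. Counting any base of a region in the window gave 14 genes against 9.01%. The stronger part of the thresholded list, its first 50% by signal, gave 11 genes against 4.8%, without eif-3.J, eif-1.A and eif-2gamma. Leaving out summits within 200 bp of a small RNA gene gave 12 genes against 7.68%, without eif-2Bgamma and eef-1A.1. The 8 genes eif-3.B, eif-3.C, eif-3.E, eif-3.I, ife-4, eef-1A.2, eef-2 and iff-2 were kept in all of these counts.

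Over the 15 summits the median GC content of 201 bp was 41.3% (range 32.3 to 57.2), against 46.8% for the 2419 nuclear thresholded summits and 33.3% in 18323 promoters without a peak. The windows of those promoters were all centred 248 bp upstream, whereas the summits lay 12 to 921 bp upstream. The GC box GGGCGG, on either strand, was in 3 of 15 windows (eif-3.J, eif-1.A and eif-2Bgamma). It was in 14.5% of all thresholded windows and in 3.75% of the promoters without a peak. The eif-2Bgamma window is centred in an exon of the snRNA gene sup-39. The related box GGGTGG was in none, against 10.9% and 3.75%, and GTTCGA, the B box of tRNA genes, was in none, against 13.8% and 6.37%. TATAAA was in those of eif-3.B and eif-3.D, against 10.5% and 24.6%. GCGC, chosen after values were seen, was in 12 of 15 windows from 11 genes, against 57.2% and 20.1%. It was absent from the windows of eef-1A.1, iff-2 and eif-2Bgamma. These are matches of letters in windows of 1 length and do not locate a binding site.

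Other genes of the translation pathway, from a list that was drawn up with earlier results on these data known, are set beside them. Of 25 symbols, 24 were found as protein-coding genes. A thresholded peak stood at 6 of them (25%, exact 95% interval 9.77 to 46.7, against 8.26% of all genes). They were larp-1 (signal 823, rank 170) and ifet-1 (823, rank 171), which encode RNA-binding and eIF4E-binding proteins, erfa-3 (687, rank 240), the release factor GTPase, drr-2 (668, rank 253), an eIF4H-like protein, the poly(A)-binding protein gene pab-2 (549.9, rank 375) and the mitochondrial elongation factor gene gfm-1 (345, rank 923). The peak of ifet-1 lay 505 bp upstream of it and 263 bp upstream of the ribosomal protein gene rps-1, that of larp-1 lay 673 bp upstream of it and 316 bp upstream of wip-1, and that of drr-2 lay 185 bp upstream of it and 161 bp upstream of set-16, so these 3 of the 6 were nearer to another gene. A further 9 of the 24 genes had a weaker summit in both replicates, among them ifg-1, the eIF4G scaffold, inf-1, the eIF4A helicase, and pab-1. Over all genes 32.4% had a summit in both replicates, whether or not they had a thresholded peak. Of the 24 genes, 4 had none in either replicate.

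By position, 6 of the 12 translation factor genes on chromosome I had a peak, where 12.02% of all genes there did. The counts were 3 of 11 on chromosome II (7.97% of all genes), 2 of 6 on III (11.97%), 1 of 2 on IV (6.98%), 0 of 4 on V (4.75%) and 2 of 3 on X (9.04%).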

How the data were processed

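The 2 samples are biological replicates of 1 group in an SPTF-1 ChIP-seq experiment. Per the labels, chromatin was sonicated. Per the deposited file listings, regions were called on alignments against the same control file for both replicates, and the thresholded list came from an irreproducible discovery rate analysis. The aligner, peak caller, cutoff and depth are not given in the sources used here, so signals carry no counting interval. The 4 deposited ce11 lists hold a signal per region, a −log10 q value and a summit offset. The lowest −log10 q was 0.185 in the pooled list, 0.165 in replicate 1 and 0.121 in replicate 2, against 1.895 in the thresholded list. Since 1725 of 2430 thresholded regions, and 13 of the 15 summits described, share the highest −log10 q, ranks follow the signal. The ce10 lists were not used. Protein and coding identities come from pairwise alignment of annotated coding sequences. Summits were assigned to 5' ends of all transcripts in Ensembl release 115 with Python 3.11.15, NumPy 2.4.6 and SciPy 1.17.1. The assignment was checked on simulated summits, with 200 of 200 recovered. With 1 group no test between groups was made. By rule, each gene with a thresholded peak is named with its values, each with a summit in both replicates with its pooled signal and rank, and listed pathway genes where they had a peak. The ranks of genes seen in a single replicate, the 100 bp bound on replicate summits, the GCGC tetramer, egl-45 and cif-1 were added after values were seen. The genes, groups, motifs and lists were chosen with earlier results of these data known. The alternatives were the window, the nearest 5' end, any overlap, signal, the pooled list, each replicate's strongest regions and small RNA genes.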

Additional observations from a re-analysis of the deposited data

How the results depend on the processing

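The count of 14 translation factor genes with a peak lay between 11 and 17 under the alternatives of window, assignment, signal, small RNA genes and replicate. With all 30000 pooled regions, which carry no threshold and mark 39.8% of all genes, it was 32, with 10 eIF3 genes, 8 of the eIF1, eIF2 and eIF2B group, both eif-4A3 and eif-6 (2 genes), 5 cap-binding genes and 7 eIF5A and elongation factor genes. With the stronger part of the thresholded list the eIF1, eIF2 and eIF2B group had 1 gene, with 4.8% of all genes marked. Without replicate 1 the cap-binding genes numbered 2, with ife-2 added, and without replicate 2 they numbered 1. For all 38 genes the count was 17 without replicate 1 (8.49% of all genes) and 14 without replicate 2 (7.97%). No paired analysis was possible because the series has 1 group. The main limits are that the lists give no depth, that the control is not analysed here, that 1 summit can count for several genes, and that regions rest on 2 replicates with a shared control.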
